A study of Saccharomyces cerevisiae with 24 samples.

Results

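Transcript levels of a Saccharomyces cerevisiae strain with an uncleavable phosphatidylserine decarboxylase 1 (Psd1) were compared with those of its control strain while both grew in medium with ethanolamine. The comparison uses 6 of the 24 libraries of the series, 3 of the mutant (LGE) and 3 of the control (WTE). It covers the 6576 genes listed in both of the tables that hold these libraries, of 6814 genes listed in any table. Both strains have the GA74-1A background and lack the chromosomal PSD1 and PSD2 genes. The control carries Psd1 with a 3XFLAG tag in the vector pRS305, and the mutant carries Psd1 in which the LGS motif was changed to AAA. Both were grown in YPD, a rich glucose medium, with 2 mM ethanolamine and harvested at an OD600 of 0.5 to 0.7. No label says whether each strain is 1 clone, or whether replicates are separate cultures, so p-values measure only the spread between these libraries. Library totals ran from 16191167 to 20776223 counts.

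Psd1 sits in the mitochondrial inner membrane and turns phosphatidylserine into phosphatidylethanolamine (PE). The precursor cuts itself at the LGS motif, and the cut creates the active enzyme. Yeast also makes PE from added ethanolamine through the Kennedy pathway, in which the enzymes Eki1, Ect1 and Ept1 act in turn, and so grows without Psd1 and Psd2 when ethanolamine is supplied. The reference PSD1 sequence (R64 genome, chrXIV:316253-316321, minus strand) is shown around the self-cleavage motif, whose 3 codons, 461 to 463 of 500, are in capitals, because these are the codons the mutant changes.

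PSD1: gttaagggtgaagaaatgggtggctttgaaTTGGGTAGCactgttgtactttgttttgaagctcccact

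Gene counts do not show which bases stand at these codons, so the alleles could not be told apart. PSD1 (YNL169C) itself was read at 538, 550.2 and 371 CPM (read counts divided by the TMM-scaled library size, per 1e6) in LGE and at 628, 640.0 and 605 CPM in WTE. Every LGE library was below every WTE library, and the log2 fold change of -0.36 ± 0.20 (SE) was not called (adjusted p 0.410). YNL170W overlaps PSD1 on the opposite strand and the strandedness of the counts is not stated, so some of these reads may belong to it. The auxotrophic markers HIS3, LEU2, TRP1 and URA3 had log2 fold changes of -0.50, -0.44, -0.04 and -0.28, none called. The summed CPM of 6 MATa markers was 2439 to 2463 in LGE and 1986 to 3244 in WTE, and that of 4 MATalpha markers was 131 to 136 and 87.4 to 96.1. The 12 mitochondrial-genome genes in both tables summed to 155, 180 and 217 counts in LGE and 555, 443 and 323 in WTE.

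The replicates were not evenly spaced. LGE replicates 1 and 2 correlated at r = 0.9968 across genes and WTE replicates 1 and 2 at 0.9962, whereas LGE replicate 3 correlated with the other LGE libraries at 0.9481 and 0.9477, below their correlations with the WTE libraries (0.9763 to 0.9799). LGE replicate 3 was over 2-fold from the mean of the other LGE libraries at 12.6% of genes (441 higher, 340 lower), and WTE replicate 3 was so from its own group at 2.33%. Relative to the WTE mean, the median of 37 ribosome biogenesis genes was 1.27 in LGE replicate 3 and 0.25 and 0.22 in the other LGE libraries, on the log2(CPM + 1) scale. The median of 14 glycogen and trehalose genes was -1.79, against 0.11 and 0.06. For this reason the lists below, and single genes where stated, are also given without LGE replicate 3. In that fit the spread within LGE comes from replicates 1 and 2 alone, which nearly coincide. No label says whether these 2 share a culture. Passing in that fit is therefore weaker support than passing with all 6 libraries.

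**Figure D1:**
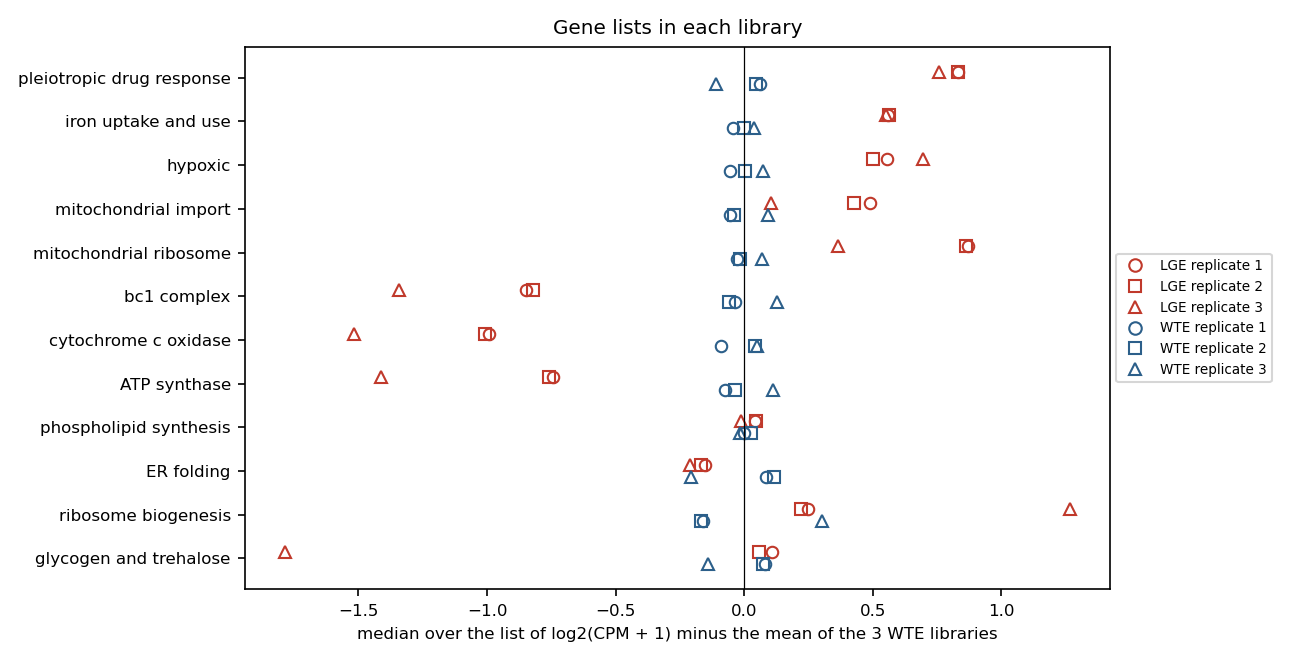
Median over each gene list of log2(CPM + 1) minus the mean of the 3 WTE libraries (horizontal axis), with 1 symbol per library, LGE in red and WTE in blue. LGE replicate 3 (red triangles) stands apart from the other LGE libraries at ribosome biogenesis (1.27) and glycogen and trehalose (-1.79), while all 3 LGE libraries lie below all 3 WTE libraries for the bc1 complex, cytochrome c oxidase and ATP synthase.

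At an adjusted p under 0.05, 52 of 6220 genes tested were called, 0.836% of them, 39 higher in LGE (0.627%) and 13 lower (0.209%), and 39 of the 52 differed at least 2-fold. The groups did not overlap at any of the 52. Over all genes tested, 12.4% had every LGE library above every WTE library and 13.6% the reverse. Without LGE replicate 3 the test called 835 of 6241 genes (13.4%), 555 higher (8.89%) and 280 lower (4.49%), among them all 52. Leaving out any other library gave 3 to 11 calls, and 42 of the 52 were kept in 1 of these 6 fits, that without LGE replicate 3. DAN1, OSI1 and TIR1 were kept in all 6. With replicates 1 and 2 of each group summed into 1 library, DAN1 was called (adjusted p 0.00986) and no other gene, with 378 genes at an unadjusted p under 0.05.

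**Figure D2:**
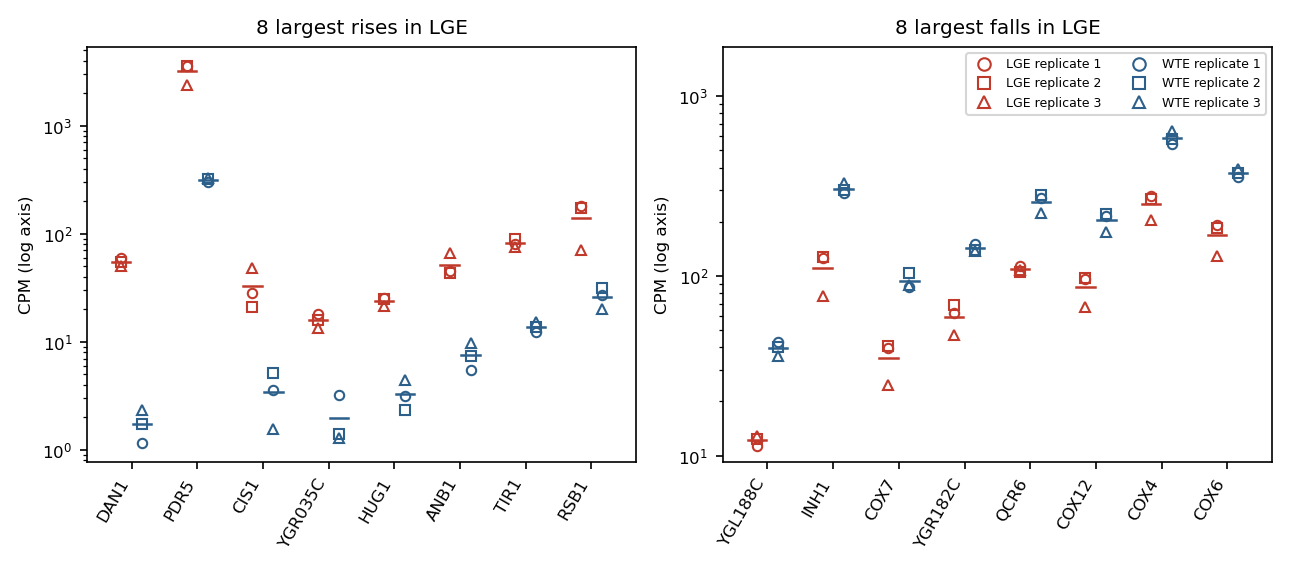
CPM of the 8 genes with the largest called rises (left) and the 8 with the largest called falls (right) in each of the 6 libraries, on log axes, with lines at the group means. The LGE (red) and WTE (blue) symbols do not overlap for any of the 16 genes, and in INH1, COX7 and RSB1 the red triangle of LGE replicate 3 is well below the other LGE symbols.

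The pleiotropic drug response list held the most rises of any list. Pdr1 and Pdr3 are transcription factors that switch on membrane transporters and lipid-modifying proteins when cells meet toxic compounds, by binding a pleiotropic drug response element in front of the gene. Of 19 listed genes, 6 rose and none fell, where 0.627% of all genes rose and 0.209% fell. At 17 of these (and at 12.4% of all genes tested) every LGE library was above every WTE library. The list had a median log2 fold change of 0.77, against 0.01 over all genes tested. With LGE replicate 3 left out, 14 rose and none fell, where 8.89% of all genes rose. Leaving out any other library left 0 or 1 of the list called.

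The element was searched as TCCGNGGA on both strands in the 500 bases before the start codon. It was found for 14 of the 19 genes (73.7%) and for 2.81% of 6373 protein-coding genes. Of the 6 called genes 4 had it, and RSB1 and LAF1 did not. Uncalled members such as YOR1, PDR10 and PDR15 also had it. The list was fixed by textbook membership, so its share was not a separate test. Matches from the R64 genome in front of the 4 called genes are shown 5′ to 3′ on the strand of the gene. The element is in capitals. The PDR5 stretches are chrXV:619445-619492 and chrXV:619507-619554 (plus strand), and those of CIS1, YGR035C and GRE2 are chrXII:822890-822937 (minus), chrVII:557813-557860 (minus) and chrXV:43523-43570 (plus).

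PDR5: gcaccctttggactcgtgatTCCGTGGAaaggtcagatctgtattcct
PDR5: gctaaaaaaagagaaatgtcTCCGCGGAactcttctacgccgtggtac
CIS1: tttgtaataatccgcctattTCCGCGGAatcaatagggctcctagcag
YGR035C: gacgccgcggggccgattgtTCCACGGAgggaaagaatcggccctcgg
GRE2: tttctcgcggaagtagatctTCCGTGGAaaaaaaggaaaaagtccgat

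PDR5 (YOR153W, chromosome XV, 619840-624375), the main multidrug efflux pump of the plasma membrane, had 3553, 3575 and 2399 CPM in the LGE libraries. In the WTE libraries it had 299, 321 and 331 CPM. The log2 fold change was 3.33 ± 0.25 (adjusted p 0.00396), with adjusted p-values from 0.000457 to 0.0685 over the fits that each left out 1 library. All 3 mutant libraries were thus far above all 3 controls, and LGE replicate 3 was the lowest of the mutant libraries. RSB1 (YOR049C), which exports sphingoid long-chain bases, had 179, 173 and 70.2 CPM against 26.9, 31.4 and 20.1 CPM (2.43 ± 0.37 on the log2 scale, adjusted p 0.0451, and 0.244 without WTE replicate 1). CIS1 (YLR346C) had 28.4, 21.0 and 48.6 CPM against 3.56, 5.13 and 1.57 CPM (3.26 ± 0.49, adjusted p 0.0423). Here LGE replicate 3 was the highest of the mutant libraries. YGR035C had 18.1, 16.04 and 13.5 CPM against 3.22, 1.39 and 1.30 CPM (3.00 ± 0.38, adjusted p 0.0327), and was the least abundant of the called members. The other called members were GRE2, a methylglyoxal reductase (1.34 ± 0.17, adjusted p 0.0278), whose reads are uncertain because it overlaps YOL150C on the opposite strand, and LAF1 (0.89 ± 0.13, adjusted p 0.0408).

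The transporter PDR15 differed most among the mutant libraries. It had 1540.2 and 1538 CPM in LGE replicates 1 and 2 but 328 CPM in replicate 3, against 266, 274 and 209 CPM in WTE, and was not called (log2 fold change 2.19 ± 0.55, adjusted p 0.111, and 0.00106 without LGE replicate 3). Other transporters differed less: SNQ2 had a log2 fold change of 0.35, TPO1 of 0.49 and YOR1 of -0.03, none called. The regulator PDR3, whose own promoter is a target of the factors, stood at 0.77 (adjusted p 0.108, and 0.0396 without LGE replicate 3) and PDR1 at -0.15 (adjusted p 0.580). ATG40, a receptor for selective autophagy of the endoplasmic reticulum (ER), lies 1551 bases from PDR5 in the opposite orientation and also rose (1.68 ± 0.20, adjusted p 0.0210).

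Hypoxic genes were the other group with large rises. These genes are known to be transcribed when oxygen, haem or sterols run low, and include cell wall mannoproteins (the DAN and TIR genes), the hypoxic form of translation factor eIF5A (ANB1) and the hypoxic ADP/ATP carrier (AAC3). Of 13 listed genes 4 rose, DAN1, TIR1, TIR4 and ANB1, and none fell, where 0.627% of all genes rose and 0.209% fell. The groups did not overlap at 8, each higher in LGE (as at 12.4% of all genes), and the median log2 fold change was 0.71. With LGE replicate 3 left out 7 rose (8.89% of all genes did), and leaving out another library left 2 or 3 called. The mannoprotein genes are similar in sequence to one another and ANB1 is similar to its aerobic copy HYP2, so how reads were shared out between copies is uncertain.

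DAN1 (YJR150C, chromosome X, 708811-709707) had the largest rise among genes with a mean of at least 50 counts, with 60.2, 54.7 and 50.4 CPM in LGE. In WTE it was read at 1.15, 1.75 and 2.33 CPM, from 24 to 43 counts. The log2 fold change was 4.98 ± 0.27 (adjusted p 0.00117), with at most 0.0293 over the fits that left out a library. The gene was thus at a low level in each control library and far higher in each mutant library. TIR1 (YER011W) had 79.8, 90.2 and 75.4 CPM against 12.3, 13.8 and 15.4 CPM (2.56 ± 0.15, adjusted p 0.00117). ANB1 (YJR047C) had 44.9, 42.9 and 67.0 CPM against 5.53, 7.42 and 9.69 CPM (2.77 ± 0.28, adjusted p 0.0125, and 0.124 without WTE replicate 2). TIR4 (YOR009W) had 103, 102 and 82.0 CPM against 37.6, 30.05 and 30.2 CPM (1.55 ± 0.16, adjusted p 0.0132). In these 3 genes the lowest mutant library was more than 2-fold above the highest control library.

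The other members moved less or not detectably. TIR2 stood at 0.75 (adjusted p 0.0936) and AAC3 at 0.71 (adjusted p 0.0615), and both passed without LGE replicate 3 (adjusted p 0.00296 and 0.0101), as did AUS1, a sterol importer (0.48, adjusted p 0.00795 there). DAN4 was at -0.01 and HEM13, an oxygen-requiring enzyme of haem synthesis, at 0.27 (adjusted p 0.497). The hypoxic repressors ROX1 (0.77, adjusted p 0.264) and MOT3 (-0.20, adjusted p 0.872) were not called. The anaerobic response motif TCGTTNAG, chosen after the values were seen and searched as above, was found in front of 4 of the 13 genes (30.8%) and of 5.07% of all genes. Of the 4 called genes, DAN1 and TIR4 had the motif and TIR1 and ANB1 did not. The uncalled DAN4 and PDR11 (log2 fold change -0.20) also had it. Both matches in front of DAN1, at chrX:710092-710139 and chrX:709860-709907 (minus strand), are shown with the motif in capitals.

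DAN1: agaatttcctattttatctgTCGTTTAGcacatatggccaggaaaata
DAN1: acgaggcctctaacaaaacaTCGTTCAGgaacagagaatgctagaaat

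Iron uptake genes formed a further group of rises. In yeast the factors Aft1 and Aft2 induce these genes when iron, or the iron-sulphur clusters that mitochondria make, run short. Of 21 genes tested, 3 rose and none fell, where 0.627% of all genes rose and 0.209% fell. The median log2 fold change was 0.60. At 11 LGE was above WTE in every library and at 1 the reverse, where the shares of all genes were 12.4% and 13.6%. TIS11 (YLR136C), which destabilises mRNAs of iron-using proteins, had 53.0, 47.8 and 31.2 CPM against 9.70, 8.39 and 6.66 CPM (2.41 ± 0.25, adjusted p 0.0143). SIT1 (YEL065W), a siderophore transporter, had 90.6, 99.7 and 72.9 CPM against 19.7, 25.7 and 14.7 CPM (2.13 ± 0.23, adjusted p 0.0176). ARN1 (YHL040C), another siderophore transporter, had 267, 272 and 226 CPM against 79.5, 84.5 and 96.9 CPM (1.55 ± 0.15, adjusted p 0.0101). The mutant libraries were above the controls at each of the 3, and LGE replicate 3 was the lowest mutant library at each.

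The reductive uptake genes were higher without passing the test. The ferric reductase FRE1 stood at 1.54 (adjusted p 0.0738), the permease FTR1 at 1.10 (adjusted p 0.0658) and the multicopper oxidase FET3 at 0.68 (adjusted p 0.0615). All 3 passed without LGE replicate 3 (adjusted p 0.0139, 0.00992 and 0.00691), among 13 rises and no fall in the list. Of all genes, 8.89% rose and 4.49% fell in that fit. Leaving out any other library left 0 or 1 called. AFT1 and AFT2 were at 0.61 and 0.25, not called. The Aft site TGCACCC, searched on both strands, was found in front of 16 of the 21 genes (76.2%) and of 2.31% of all genes. Matches in front of the 3 called genes (chrXII:416881-416927, minus; chrV:27449-27495, plus; chrVIII:21205-21251, minus) are shown, with the site in capitals, read on the opposite strand in SIT1.

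TIS11: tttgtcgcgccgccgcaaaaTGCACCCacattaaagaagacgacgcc
SIT1: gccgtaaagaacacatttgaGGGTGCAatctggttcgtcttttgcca
ARN1: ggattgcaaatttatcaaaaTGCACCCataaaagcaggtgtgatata

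Nuclear genes for the respiratory chain and ATP synthase were lower in the mutant. The bc1 complex and cytochrome c oxidase pass electrons to oxygen and pump protons, ATP synthase uses the proton gradient, and all 3 stand in the inner membrane where Psd1 works. Of the 35 nuclear genes listed for the 3 complexes, 8 fell and none rose, where 0.209% of all genes fell and 0.627% rose. At 32 of them (and at 13.6% of all genes tested) every LGE library was below every WTE library. The median log2 fold change of the 35 was -1.01. Leaving out LGE replicate 3 gave 29 falls and 1 rise, COX5B, with a median of -0.83. That fit called 4.49% of all genes lower and 8.89% higher. In bulk RNA a lower CPM does not tell less of a transcript per cell from fewer cells that contain it. At the 8 called members LGE replicate 3 was the lowest mutant library in 7, QCR6 being the exception.

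Of cytochrome c oxidase, COX4, COX6, COX7, COX8 and COX12 were called among 10 subunit genes. COX7 (YMR256C) had 39.8, 40.8 and 24.7 CPM in LGE and 87.0, 103 and 89.4 CPM in WTE (-1.41 ± 0.21, adjusted p 0.0423). COX4 (YGL187C) had 278, 268 and 204 CPM against 537, 577 and 638 CPM (-1.22 ± 0.18, adjusted p 0.0408). COX12 and COX6 were close to these, at -1.23 ± 0.19 (adjusted p 0.0451) and -1.15 ± 0.18 (adjusted p 0.0485). COX5A and COX5B encode alternative forms of the same subunit, used with and without oxygen. COX5A stood at -1.25 ± 0.21 (adjusted p 0.0537, and 0.00369 without LGE replicate 3) and COX5B at 0.10 ± 0.25 (adjusted p 0.876, and 0.0484 without LGE replicate 3). YGL188C, which starts 187 bases beyond the end of COX4 on the same strand and has no known role, had the largest called fall with a mean of at least 50 counts (11.3, 12.4 and 12.8 CPM against 42.6, 40.4 and 35.6 CPM, -1.70 ± 0.15, adjusted p 0.00760).

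All 9 bc1 subunit genes had LGE below WTE in every library, with log2 fold changes from -1.25 to -0.73. QCR6 (YFR033C), the acidic subunit, was the called member, with 113, 105 and 107 CPM against 269, 283 and 223 CPM (-1.25 ± 0.14, adjusted p 0.0177). The Rieske iron-sulphur protein RIP1 stood at -1.13 ± 0.27 (adjusted p 0.101) and the core proteins COR1 and QCR2 at -0.99 and -1.02 (adjusted p 0.0708 and 0.0615). In the fit without LGE replicate 3, 8 of the 9 fell, CYT1 (cytochrome c1) being the exception (adjusted p 0.0833).

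Of 16 ATP synthase genes, 15 were lower in every LGE library. The called members were INH1, the inhibitor that stops the enzyme from running backwards, and ATP20, the subunit that takes part in pairing the enzyme into dimers. INH1 (YDL181W) had 126, 128 and 76.9 CPM against 288, 299.6 and 328 CPM (-1.47 ± 0.22, adjusted p 0.0408), and ATP20 had a log2 fold change of -1.02 ± 0.17 (adjusted p 0.0486). The catalytic subunits ATP1 and ATP2 stood at -0.88 and -0.94 but were uneven between replicates (adjusted p 0.192 and 0.216). STF1, the other inhibitor, was at -0.19 (adjusted p 0.775). Without LGE replicate 3, 13 of the 16 fell. Leaving out any other library left none of the oxidase or ATP synthase genes called, and at most 1 bc1 gene. MIC60, which shapes the cristae that hold these complexes, also fell (-0.89 ± 0.14, adjusted p 0.0451).

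**Figure D3:**
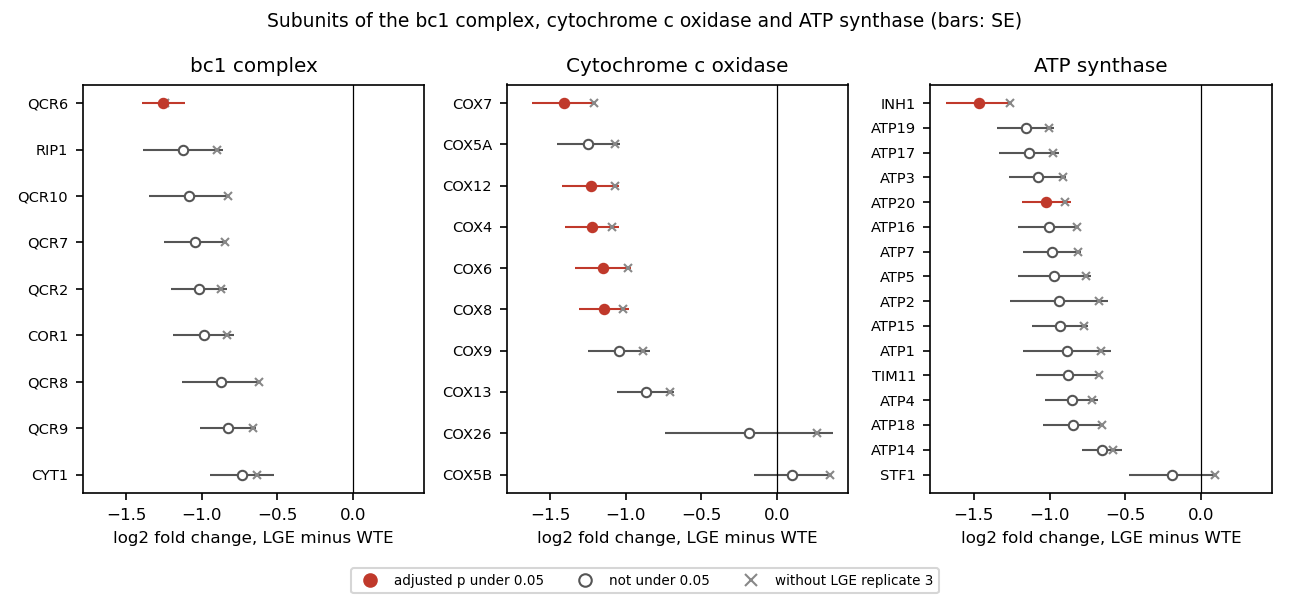
Log2 fold change (LGE minus WTE, with SE) of 35 nuclear genes of the bc1 complex, cytochrome c oxidase and ATP synthase, filled where the adjusted p was under 0.05. Crosses give the value without LGE replicate 3. All but COX5B lie below 0 with all 6 libraries, and most lie near -1.

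The surrounding steps of respiration had no called gene. None of the 7 dehydrogenase genes that feed the chain was called. The internal NADH dehydrogenase NDI1 stood at -1.29 ± 0.41 (adjusted p 0.175) and the succinate dehydrogenase genes SDH1 to SDH4 between -0.96 and -0.64. NDE2, an external NADH dehydrogenase, differed from them in sign, with 27.1 ± 7.01 CPM in LGE and 14.5 ± 0.711 CPM in WTE (SD, n = 3; 0.91 ± 0.22, adjusted p 0.106, and 0.00234 without LGE replicate 3). None of 11 tricarboxylic acid cycle genes was called, with a median of -0.27, from MDH1 at -1.05 (adjusted p 0.0813) to IDH1 at 0.57 (adjusted p 0.27). Neither cytochrome c gene was called (CYC1 at -0.52, adjusted p 0.149). Once LGE replicate 3 was left out, NDI1 (adjusted p 0.0317), MDH1 (0.00565), KGD2 (0.0372) and CYC1 (0.0447) fell and IDH1 (0.0187) rose, beside NDE2. The medians there were -0.44 for the dehydrogenases and -0.15 for the cycle.

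The HAP complex is known to activate respiratory genes by binding CCAAT, and HAP4 is its activating subunit. HAP4 had 482, 482 and 235 CPM in LGE and 137, 132 and 237 CPM in WTE, so the groups overlapped and the gene was not called (1.24 ± 0.35, adjusted p 0.142). Without LGE replicate 3 it passed (adjusted p 0.0135), higher in the mutant. HAP3 stood at -0.55 (adjusted p 0.133) and fell in the same fit (adjusted p 0.0465). None of the 5 HAP genes was called with all 6 libraries. CCAAT, searched on both strands, was found in front of 8 of 9 bc1 genes (88.9%), 8 of 10 oxidase genes (80.0%), all 16 ATP synthase genes, 9 of 11 tricarboxylic acid cycle genes (81.8%) and 63.6% of all genes, so the motif is common in windows of this length.

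No gene of mitochondrial protein import was called. Of the 30 import genes, 12 had LGE above WTE in every library and 2 the reverse, with a median of 0.37. Over all genes tested the shares were 12.4% and 13.6%. The receptor subunit TOM5 had 274, 271 and 263 CPM against 190.2, 170 and 173 CPM (0.60 ± 0.12, adjusted p 0.0708). Without LGE replicate 3, 16 import genes rose and none fell, TOM5 among the rises (adjusted p 0.00938). That fit called 8.89% of all genes higher and 4.49% lower. None of 17 mitochondrial chaperone and protease genes was called, and their median was 0.01, with 8 below 0 and 9 above. The processing peptidase subunit MAS1 came nearest (1.05 ± 0.19, adjusted p 0.0580). Of these genes MAS1, MAS2 and MGE1 rose without LGE replicate 3, with a median of 0.21 for the list.

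Among called genes outside the lists, those named here were chosen after their values were seen. MRPL31, MRPS17 and PET123 encode mitochondrial ribosomal proteins (1.07, 0.92 and 0.83). IFM1 is the mitochondrial translation initiation factor (0.83), MTO1, which overlaps YGL235W on the opposite strand and so has uncertain reads, modifies mitochondrial tRNAs (0.81) and CCM1 maintains the small ribosomal RNA (0.78). CBP6 is needed for cytochrome b translation (1.00) and COX10 takes part in the synthesis of haem A for cytochrome oxidase (1.14). MAM33, a matrix protein (1.504), and IBA57, a factor of iron-sulphur cluster maturation (1.16), rose as well. Each value is a log2 fold change with an adjusted p from 0.0177 (IBA57) to 0.0496 (MTO1). Each of these 10 genes was called without LGE replicate 3, as all 52 calls were. None of the 10 was called when any other library was left out. Their highest adjusted p in those fits ran from 0.173 (IBA57) to 0.318 (MTO1).

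Phospholipid synthesis genes, the pathway that Psd1 belongs to, were close between the strains. None of 32 genes tested was called, and their median log2 fold change was 0.05. In the pathway from phosphatidylserine, the synthase gene CHO1 stood at 0.49 ± 0.18 (272, 297 and 200.4 CPM against 165, 187 and 196 CPM, adjusted p 0.241) and the methyltransferases CHO2 and OPI3 at 0.04 and 0.07. In the Kennedy pathway, the kinase gene EKI1 was at 0.24, ECT1, which couples the product to CTP, at -0.15 and EPT1, which makes PE from it, at -0.10 (adjusted p 0.592, 0.640 and 0.667). INO1, which makes inositol phosphate and is induced when phosphatidic acid builds up, had 31.1, 32.0 and 48.7 CPM against 43.0, 41.9 and 23.99 CPM, with overlapping groups (0.04 ± 0.28, adjusted p 0.960).

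When LGE replicate 3 was left out, CHO1, GEP4 (cardiolipin precursor synthesis) and SLC1 (acylation to phosphatidic acid) rose and the cardiolipin synthase gene CRD1 fell (adjusted p 0.0139, 0.0311, 0.0382 and 0.0472). These 3 rises and 1 fall among 32 genes are near the shares over all genes in that fit, 8.89% higher and 4.49% lower. SPO7 had the smallest p of the list in the fit of all 6 libraries (-0.47 ± 0.13, adjusted p 0.144). The motif CATGTGAA, to which the inositol-sensitive factors Ino2 and Ino4 bind, was found in front of 11 of the 32 genes (34.4%) and of 1.40% of all genes. PSD2 was not analysed here.

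ER folding genes, which the unfolded protein response induces, did not pass the test in ethanolamine. Of 17 genes none was called, and their median was -0.28. KAR2, the main ER chaperone, had 2330.0, 2375 and 2284 CPM in LGE and 5070.0, 5246 and 2172 CPM in WTE (-0.84 ± 0.36, adjusted p 0.307). WTE replicate 3 was thus at the level of the mutant libraries and the other WTE libraries about 2-fold above it. HAC1, the transcription factor of the response, was at 672, 709 and 704 CPM against 1176, 1191 and 889.7 CPM (-0.64 ± 0.19, adjusted p 0.153), below WTE in each mutant library. Its open reading frame overlaps another on the opposite strand, so part of its reads may belong there. The core motif CAGCGTG was found in front of 2 of the 17 genes (11.8%) and of 2.42% of all genes. None of 10 ER degradation genes was called (median -0.23, USA1 nearest with an adjusted p of 0.221). No gene of either list was called without LGE replicate 3, where the medians were -0.18 and -0.13.

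Of the remaining lists, HXT5, a hexose transporter of slow growth, was the called member, with 118, 118 and 98.9 CPM against 50.3, 45.4 and 30.9 CPM (1.40 ± 0.20, adjusted p 0.0393, and 0.205 without WTE replicate 2), 1 of 17 hexose genes. The hexose median was 0.05, and 0.25 without LGE replicate 3, where HXT1, HXT6 and MTH1 also rose; HXT6 is near-identical to HXT7, so its reads are uncertain. No member was called among 37 ribosome biogenesis genes (median 0.73, and 0.21 without LGE replicate 3), 33 proteasome genes (median -0.32, with LGE below WTE in every library at 23) or 21 heat shock genes (median -0.33). Over all genes tested, 13.6% had LGE below WTE in every library. In the proteasome list LGE replicate 3 stood lowest (library medians -0.14, -0.12 and -0.63), and leaving it out gave a median of -0.16 and 4 falls, PRE2, PRE4, PRE6 and RPN10. In the heat shock list WTE replicate 3 stood apart, with library medians of 0.39, 0.42 and -0.81 in WTE and -0.25, -0.25 and -0.29 in LGE. Its median was -0.36 without LGE replicate 3, with none called. No member was called with all 6 libraries among 6 copper genes (median 0.24, CTR3 nearest to a call with an adjusted p of 0.0674), 25 ergosterol synthesis genes (0.18), 21 sulphur assimilation genes (0.17), 14 glycogen and trehalose genes (-0.20), 13 alcohol and aldehyde enzymes (-0.10), 32 amino acid synthesis genes (0.08) and 24 cell wall integrity genes (-0.07). The fit without LGE replicate 3 turned the sign of the glycogen and trehalose median (0.08, with GSY1, GLC3, GLG1 and GDB1 called higher) and of the alcohol and aldehyde median (0.13, none called). The other medians there were 0.16 (copper, 2 rises), 0.19 (ergosterol, 1 rise), 0.05 (sulphur, none called), 0.06 (amino acid synthesis, 1 rise) and -0.06 (cell wall integrity, 2 rises), and 2 ribosome biogenesis genes rose. Over all genes tested, the fit without LGE replicate 3 called 8.89% higher and 4.49% lower. In all, 22 of 462 tested members of 26 lists were called with all 6 libraries, beside 0.836% of all genes tested.

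Called genes outside these groups included HUG1 (YML058W-A), a small inhibitor of ribonucleotide reductase, with 25.2, 25.2 and 21.5 CPM against 3.12, 2.35 and 4.44 CPM (2.85 ± 0.26, adjusted p 0.0101). RNR3, a large subunit of the same enzyme, rose less (72.1, 70.6 and 81.3 CPM against 42.4, 39.6 and 42.0 CPM, 0.85 ± 0.12, adjusted p 0.0393). Both are known targets of the DNA damage checkpoint. OSI1 had 98.2, 98.2 and 81.3 CPM against 24.1, 22.1 and 22.0 CPM (2.03 ± 0.14, adjusted p 0.00217), with close replicates in both groups. TKL2, the minor transketolase, which overlaps YBR116C on the same strand (1.72 ± 0.23), NRG1, a repressor of glucose-regulated genes (1.17 ± 0.18), and MDH2, the cytosolic malate dehydrogenase (0.90 ± 0.13), were also called (adjusted p 0.0341, 0.0451 and 0.0408). YGR182C fell by 1.27 ± 0.17 (adjusted p 0.0341) but overlaps TIM13 on the opposite strand, so its reads are uncertain. AI2, a mitochondrial intron gene that overlaps other mitochondrial genes on the same strand, with 2 to 6 counts in LGE and 33 to 56 in WTE, and YOL013W-B were called with a mean under 50 counts.

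The same strain contrast was measured in 3 other media, in libraries of their own, plain YPD (LGD and WTD), 2 mM choline (LGC and WTC) and 1% tergitol with 0.5 mM lyso-phosphatidylethanolamine (lyso-PE; LGL and WTL). In plain YPD the test called 36.8% of genes (19.5% higher and 17.3% lower in the mutant), in choline 16.6% (9.7% and 6.93%) and in lyso-PE 1.52% (1.18% and 0.34%). Of the 52 calls in ethanolamine, 36 (69.2%) were called the same way in plain YPD, where they were 1.59% of the 2270 calls. Another 4, ANB1, NRG1, RNR3 and TIR1, were called the opposite way there. In choline 42 (80.8%) were called the same way, 4.09% of the 1027 calls, and in lyso-PE 14 (26.9%), each a rise, 14.9% of the 94 calls. In these media no call went the opposite way. The 11 genes called the same way in all 3 were ATG40, CIS1, DAN1, GRE2, HUG1, IBA57, IFM1, OSI1, PDR5, PET123 and RSB1, and 6 were called in none, AI2, AMD1, NRG1, RNR3, YDR098C-B and YOL013W-B.

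By list, the drug response genes rose in each medium, with 18, 12 and 8 of the 19 called higher in plain YPD, choline and lyso-PE and none lower. PDR5 had log2 fold changes of 3.78, 2.86 and 2.66 there. Of the 35 respiratory genes, 33 fell in plain YPD, 31 in choline and 1 in lyso-PE (RIP1, adjusted p 0.0452), with medians of -0.96, -1.03 and -0.41 beside -1.01 in ethanolamine. The iron list had 10 rises and 3 falls in plain YPD, 7 and 1 in choline, and 1 and 0 in lyso-PE. The hypoxic list had 3 rises and 5 falls in plain YPD, 7 and 1 in choline and 2 and 0 in lyso-PE. Of all genes, 19.5% rose and 17.3% fell in plain YPD, 9.7% and 6.93% in choline, and 1.18% and 0.34% in lyso-PE. The 3 hypoxic rises and the 3 iron falls in plain YPD are near those shares.

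**Figure D4:**
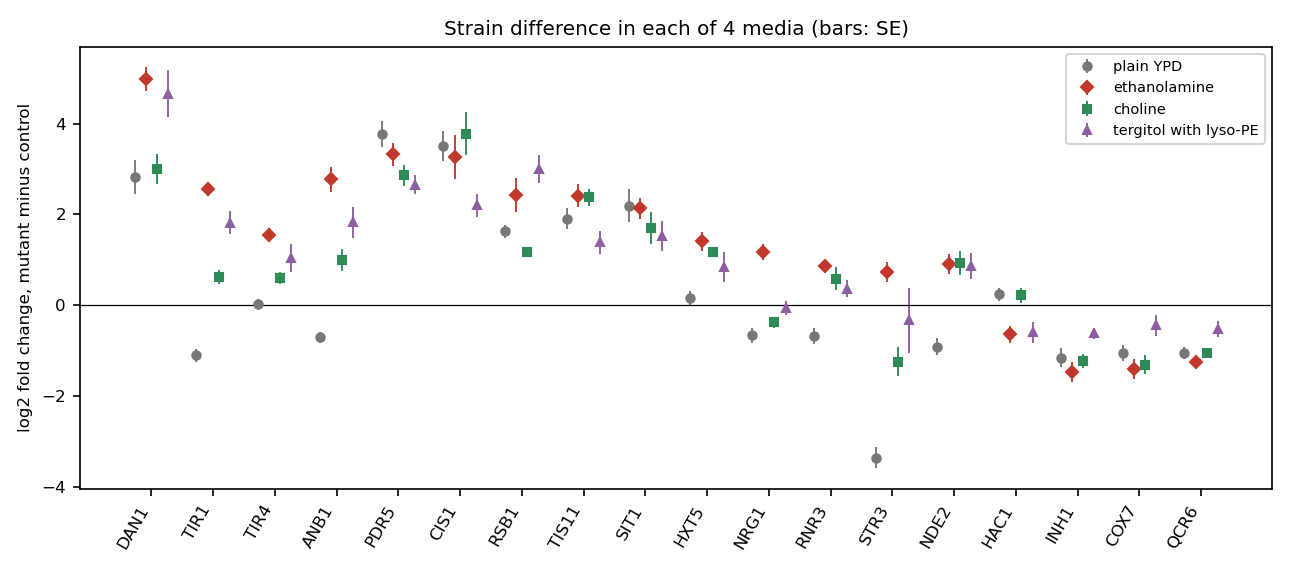
Log2 fold change of the mutant against the control (vertical axis, bars: SE) for 18 genes in plain YPD, ethanolamine, choline and tergitol with lyso-PE, each from its own 6 libraries. PDR5 is high and INH1, COX7 and QCR6 are below 0 in each medium, while TIR1, ANB1 and STR3 lie below 0 in plain YPD and above 0 in ethanolamine.

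Whether the strain difference itself changed with ethanolamine was tested as the interaction of strain and medium, over the LGE, WTE, LGD and WTD libraries, so it shares its LGE and WTE libraries with the comparison above. It was called at 333 of 6281 genes (5.3%), 176 with a higher and 157 with a lower difference in ethanolamine, and at 11 of the 52 genes above. Without replicate 1, 2 or 3 of every group the count was 3, 2 and 3822. With replicates 1 and 2 summed it was 2, TIR1 and STR3. For a gene to be called here, either strain may have moved between media, so levels in all 4 groups are given for the genes with the smallest p, on a common CPM scale over these 12 libraries.

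TIR1 had 73.6 to 85.8 CPM in LGE and 11.7 to 14.5 CPM in WTE, but 22.4 to 26.9 CPM in LGD and 44.0 to 62.5 CPM in WTD. Its strain difference was thus 3.67 ± 0.21 higher in ethanolamine on the log2 scale (adjusted p 7.17e-06), and the order of the strains was opposite in the 2 media. ANB1 showed the same reversal, with 40.8 to 65.4 CPM in LGE, 5.23 to 9.16 in WTE, 23.3 to 29.8 in LGD and 41.7 to 46.3 in WTD (3.49 ± 0.31, adjusted p 0.000343). STR3, a cystathionine beta-lyase of methionine synthesis, had 12.4 to 16.7 CPM in LGE and 6.78 to 10.1 CPM in WTE, and 8.43 to 10.5 CPM in LGD. WTD alone was high, at 74.9 to 130.2 CPM (interaction 4.10 ± 0.32, adjusted p 0.000125). KTR2, a mannosyltransferase gene, had a strain difference in plain YPD (212 to 251 CPM in LGD, 54.5 to 69.4 in WTD) and a small one in ethanolamine (109 to 116 in LGE, 89.2 to 102 in WTE; interaction -1.76 ± 0.17, adjusted p 0.000525).

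Counted by list, the interaction was called at 8 of 13 hypoxic genes, each with a higher difference in ethanolamine. It was also called at 11 of 21 sulphur assimilation genes and 11 of 32 amino acid synthesis genes, where the control strain was above the mutant in plain YPD (12 and 16 members lower in the mutant there) and no member was called in ethanolamine. MET6, methionine synthase, had a log2 strain difference of -2.22 in plain YPD and 0.08 in ethanolamine, and HIS4, of histidine synthesis, -2.52 and -0.39. Of the ER folding list 6 were called, with a lower difference in ethanolamine. LHS1, an Hsp70 of the ER, went from 0.99 in plain YPD to -0.39. In the phospholipid list INO1 went from 2.11 in plain YPD to 0.04 (interaction -2.08 ± 0.39, adjusted p 0.0120), and ALE1 and NEM1 had higher differences in ethanolamine (1.07 and 0.83). None of the 35 respiratory genes was called in the interaction, and 1 of the 19 drug response genes was, YPL088W (-1.30 ± 0.23, adjusted p 0.0105). Over all genes tested the interaction was called at 5.3%. The respiratory and drug response counts are near that share, and the 3 calls among 32 phospholipid genes are not far above it. Calls of single genes here, other than TIR1 and STR3, were lost when replicates 1 and 2 were summed.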

How the data were processed

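RNA was extracted with hot phenol and sequenced on Illumina libraries, per the labels. Reads were handled with STAR 2.5, HTSeq 0.6.1 and DESeq2, per the submitters' processing notes; the genome build and strandedness are not given in the sources used here. The deposited read counts per gene were used unchanged. The deposited tables also give a normalized signal and FPKM per library, and the log2 ratio and p-value of each comparison by the authors. None of these was used. The LGE and WTE counts come from different tables and were joined by gene identifier; libraries in several tables were identical (0 differences). Of the genes, 153 are in 1 of these tables (at most 18 counts).

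Counts were fitted with edgeR 4.0.16 (glmQLFit, glmQLFTest; TMM; filterByExpr) in R 4.3.3, with Benjamini-Hochberg adjustment over all genes and a threshold of 0.05. SEs derive from the F statistic. In a simulation, libraries were drawn independently around a common mean per gene with the fitted dispersions, so no replicates nearly coincided. Simulated 2-fold changes were recovered at 44% and 4-fold changes at 95% among 6190 genes for LGE vs WTE (16 unchanged genes also called), and at 27.3% and 82% among 6252 genes for the interaction (9 unchanged genes called). Motifs were read from the R64 genome, where 6372 of 6376 genes start with ATG at the deposited position. The windows were the 500 bases before the start codon; a planned RefSeq promoter table was not used. Members and lists were chosen with earlier results of these data known. By rule, the text names the 8 largest called rises and falls averaging 50 counts or more and without overlap, PSD1, the markers, of each list the 2 called members with the largest change or the member with the smallest p, and 4 interaction genes, beside list members named by role. Replicate numbers were not used to pair the libraries, since libraries with the same number deviated from their groups with correlations of -0.0697, -0.0256 and -0.0623. These correlations cannot show whether libraries with the same number were handled together. Alternatives were other normalizations, filters, DESeq2 1.42.0, all 24 libraries in a single fit, left-out libraries and a replicate block.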

Additional observations from a re-analysis of the deposited data

Results flagged for a closer look

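The strain difference in ethanolamine differed from that in plain YPD, by edgeR's interaction test with Benjamini-Hochberg adjustment, at 10 of the genes chosen by the naming rule. TIR1, STR3, ANB1 and KTR2 were named for their small interaction p. Most of the others were named for their LGE and WTE values, which the interaction shares. The count of 10 is therefore no separate support. Over all genes tested the interaction was called at 5.3%. The difference was higher in ethanolamine, on the log2 scale, by 4.10 for STR3, 3.67 for TIR1, 3.49 for ANB1, 2.16 for DAN1, 1.81 for NDE2, 1.24 for HXT5, 1.03 for HUG1 and 0.97 for HIS3. It was lower for KTR2 (-1.76) and HAC1 (-0.89). The adjusted p ran from 7.17e-06 for TIR1 to 0.0487 for HUG1. DAN1 and HUG1 were higher in the mutant in both media, so their difference changed in size and not in sign. DAN1 had 49.2 to 57.4 CPM in LGE and 8.79 to 22.4 CPM in LGD, against 1.09 to 2.67 CPM over the WTE and WTD libraries. With replicates 1 and 2 summed, TIR1 (adjusted p 0.0117) and STR3 (adjusted p 0.0267) stayed under 0.05, and ANB1 had an adjusted p of 0.0603. The rest had adjusted p-values from 0.314 (KTR2) to 0.737 (HAC1) in that fit.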

How the results depend on the processing

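The 52 calls became 54 with DESeq2's size factors, 45 without a filter, 49 with at least 10 counts in every library, and 54 without the 10 most abundant genes. They were 103 with upper-quartile normalization (65 higher), 486 with DESeq2, 529 with all 24 libraries in a single fit, 5 at an adjusted p under 0.01, 1 with replicates 1 and 2 summed, and 3447 without replicate 3 of both groups; leaving out 1 library gave 3 to 835. Replicate numbers were not used to pair the libraries in the main fit, and the replicate block gave 7 calls. The 22 called list members became 39 (upper quartile), 92 (DESeq2), 90 (all libraries), 5 (replicate block), 352 (without both replicates 3) and 1 (summed), and 2 to 115 with 1 library left out. Of 46 named genes, 20 were called, 37 with DESeq2, 35 with all libraries, 5 with the replicate block and 43 without both replicates 3. Summed, 1 was called, and with 1 library left out 2 to 33 were. Signs did not all hold, since the uncalled TRP1 went from -0.04 to 0.01 without LGE replicate 3. The 333 interaction calls became 661 (DESeq2), 191 (replicate block), 2 (summed) and 2 to 3822 with a replicate number left out. The 11 genes called in all 4 media became 7 (DESeq2's size factors), 116 (DESeq2), 3 (replicate block), 0 (summed) and 0 to 500. Apart from what these constructions change (fewer libraries, a shared spread), the cause was not tested. With 3 libraries a group, 2-fold changes were often missed in a simulation of independently drawn libraries, so an uncalled gene is not shown to be unchanged. The simulation did not include the near-coincidence of replicates 1 and 2 seen in these data.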

Other observations

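The mitochondrial ribosome was not among the lists; its genes were collected by their MRP, MRPL, MRPS and RSM symbols after the called genes had been seen, so the counts are a description. Of 65 such genes tested, 2 rose in ethanolamine (MRPL31 and MRPS17) and none fell, where 0.627% of all genes rose and 0.209% fell. At 50 every LGE library was above every WTE library, as at 12.4% of all genes tested. The median log2 fold change was 0.72, ranging from -0.32 (MRPL38, under 2 CPM in each library) to 1.07 (MRPL31). The library medians were 0.87 and 0.86 in LGE replicates 1 and 2 and 0.37 in replicate 3, against -0.03, -0.02 and 0.07 in WTE. Without LGE replicate 3, 61 of the 65 rose, beside 8.89% of all genes in that fit. In plain YPD 37 rose, in choline 45 and in lyso-PE 4, and none fell, with medians of 0.38, 0.48 and 0.91. Of all genes tested in these media, 19.5%, 9.7% and 1.18% rose and 17.3%, 6.93% and 0.34% fell. Of 131 cytosolic ribosomal protein genes tested, collected in the same way, none was called in ethanolamine, and their median was -0.01 (-0.06 without LGE replicate 3); many are near-identical pairs, so their counts are uncertain.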
